A study of Mus musculus with 2 samples.

Results

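The Rab GTPase genes are the 59 protein-coding genes whose symbol is Rab followed by a number and at most 1 letter, taken by symbol from the RefSeq gene table of mm10 (GRCm38.p6). They were described among 21887 protein-coding genes of chromosomes 1 to 19, X and Y. Genes that regulate Rabs but bear longer symbols, such as Rab3gap1 and Rab11fip1, are not members. The measurements were ChIP-seq peak lists, the places where DNA recovered with an antibody piled up. Both groups are wild-type endothelial cells from mouse aorta, cultured at 37 °C and 5% CO2 with 20% FBS, heparin and ECGS, with no agent under test. Chromatin was precipitated with 10 µg of an antibody to ETS1 in one group and to ETS2 in the other, both transcription factors of the ETS family, which bind DNA around a GGAA core. Each group is 1 library, so no difference between the antibodies can be set against replicate error, and no test was made.

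Rabs are small GTPases that mark the membranes of a cell. In the GTP-bound state each Rab sits on its own organelle and recruits the tethers, motors and coats that move or fuse vesicles. Guanine nucleotide exchange factors (GEFs) switch Rabs on, GTPase-activating proteins (GAPs) switch them off, and GDP dissociation inhibitors carry the inactive form through the cytosol. In endothelium, Rabs carry VEGF receptors and junction proteins through endosomes, and Rab27a, Rab3d and Rab15 are known from Weibel-Palade bodies, the storage granules of von Willebrand factor. The members were divided into 29 broadly used genes, 17 cell-type-restricted genes known mainly from neurons, epithelia, pigment cells, secretory cells or leukocytes, and 13 genes left unclassed. The division rests on general knowledge and not on expression in these cells, which was not analysed here. It was made with earlier results of these data known.

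The ETS1 library held 77295 peaks from 143778022 tags and the ETS2 library 63556 peaks from 134607908 tags, with 1.89% and 1.53% of tags inside peaks. No input library was analysed, so a peak is a place past the caller's threshold of 30 tags and is not shown to be a binding site. Peaks per Mb ranged over the autosomes from 6.44 to 57.0 in the ETS1 list and from 11.4 to 104 in the ETS2 list. The X chromosome had 0.557 and 0.234. Of 8 endothelial markers, 0 carried an ETS1 peak and 5 (Cdh5, Emcn, Erg, Kdr and Tie1) an ETS2 peak within 1 kb of a gene end. Both peaks lay there at 2 of 4 smooth muscle markers (Acta2 and Tagln) and 1 of 4 leukocyte markers (Cd68). The shares over all protein-coding genes were 39.4% (ETS1), 40.0% (ETS2) and 28.7% (both). Wilson intervals of the endothelial shares, for counting error only, were 0 to 32.4% (ETS1) and 30.6 to 86.3% (ETS2). At Erg the nearest ETS1 centre lay 1179 bp from an end, just outside the window. The marker lists are small, and differences between them were not tested. Peak lists do not measure expression and do not show which cells were present.

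Of the 59 Rab genes, 41 carried a peak of at least one list at an end, beside 50.7% of all protein-coding genes. A peak was counted at a gene when its centre, the midpoint of the deposited interval, lay within 1 kb of the first or last annotated base. Below, the start of a gene is its outermost 5′ end, and lower and upper ends are named by coordinate where strand was not used. An ETS1 peak lay there at 37 of 59 Rab genes (62.7%, 95% Wilson interval 50 to 73.9), beside 39.4% of all protein-coding genes. An ETS2 peak lay there at 32 (54.2%, 41.7 to 66.3), beside 40.0% of all genes. Both peaks were found at 28 members (47.5%, 35.3 to 60.0), beside 28.7% of all genes. Only the ETS1 list marked 9 members, beside 10.7% of all genes, and only the ETS2 list 4, beside 11.3%. Neither list marked 18 (30.5%), beside 49.3% of all genes. At 20 members (33.9%, 23.1 to 46.6) an ETS1 and an ETS2 peak overlapped by at least 1 bp at the same end, beside 19.1% of all genes. The intervals cover counting error only. Added up from the shares of genes marked on each member's own chromosome, 24.2 members would carry an ETS1 peak and 23.7 an ETS2 peak.

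Broadly used Rabs made up most of the marked genes. Of 29 broad genes, 23 (79.3%, 61.6 to 90.2) had an ETS1 end peak and 18 (62.1%, 44.0 to 77.3) an ETS2 end peak. Of 17 restricted genes the counts were 7 (41.2%, 21.6 to 64.0) and 6 (35.3%, 17.3 to 58.7), near the shares over all genes. The 13 unclassed genes had 7 (53.8%) and 8 (61.5%). Neither peak was found at 5 broad, 9 restricted and 4 unclassed genes. The chromosome shares would give 12.6 and 12.1 marked broad genes and 6.79 and 6.25 marked restricted genes. The intervals of the broad and restricted classes overlap in both lists, and the difference between the classes was not tested. Within 500 bp the restricted genes with an ETS1 peak numbered 3 and the broad genes 21, beside 30.7% of all genes at that distance. For ETS2 these were 5 (29.4%) and 15 (51.7%), beside 31.9% of all genes.

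**Figure D1:**
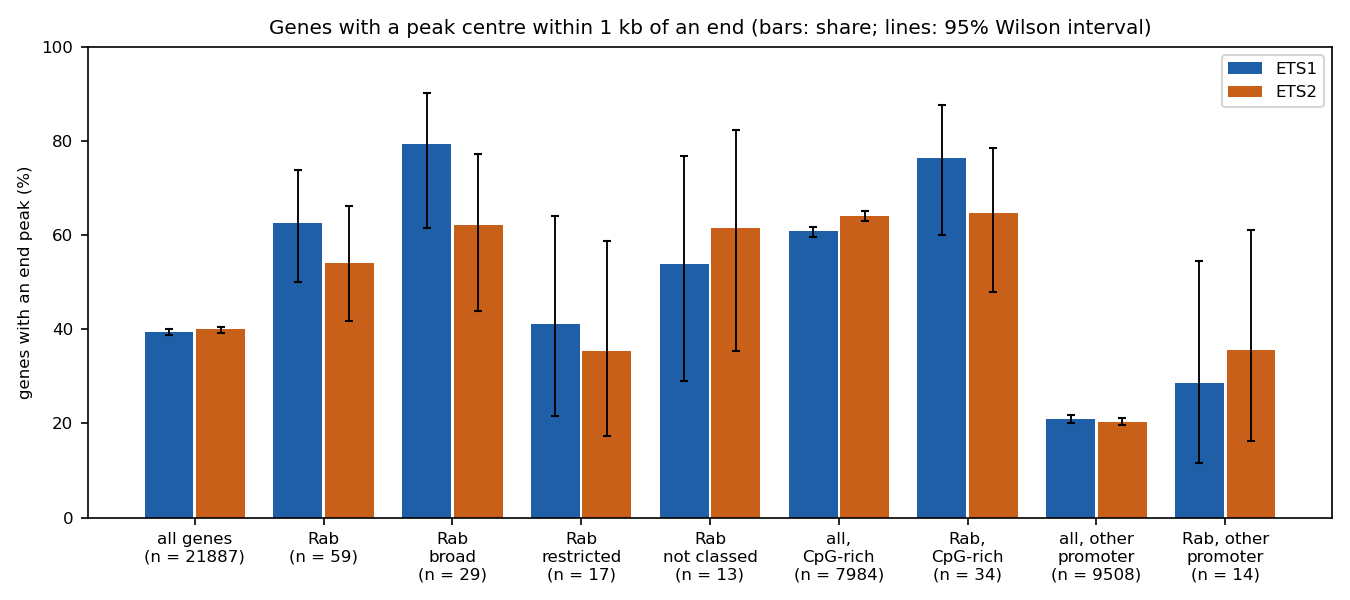
Share of genes with an ETS1 (blue) or ETS2 (orange) peak centre within 1 kb of an end, in percent, for all protein-coding genes, the Rab genes and their classes, and for genes split by the CpG content of the promoter (lines are 95% Wilson intervals). The broad class stands at 79.3% and 62.1%, the restricted class at 41.2% and 35.3%, and CpG-rich promoters over all genes at 60.8% and 64.1%.

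Most Rab promoters were CpG-rich. A CpG-rich promoter, the type typical of genes active in many tissues, was here one with a GC share of at least 50% and a CpG observed-to-expected ratio of at least 0.6 over 300 bases, from 250 before to 50 after the annotated start. RefSeq promoters of GRCm38.p6 were matched for 48 of 59 members, of which 34 (70.8%) were CpG-rich, beside 45.6% of 17492 genes. The share was 23 of 26 for broad, 5 of 12 for restricted and 6 of 10 for unclassed genes. Among CpG-rich members 26 of 34 (76.5%) had an ETS1 end peak, beside 60.8% of all genes with such promoters. For ETS2 the count was 22 of 34 (64.7%), beside 64.1%, a share near the background. Among members with other promoters, 4 of 14 (28.6%) had an ETS1 and 5 of 14 (35.7%) an ETS2 end peak, beside 20.9% and 20.4%. The 5 CpG-rich restricted genes were Rab3a, Rab3d and Rab6b, which carried both peaks, and Rab15 and Rab27a, which carried neither. Within CpG-rich promoters, 18 of 23 broad and 3 of 5 restricted genes had an ETS1 end peak, and 15 of 23 and 3 of 5 an ETS2 end peak. The part of promoter type in the values of the classes was not tested.

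The nearest end peak of a Rab gene usually lay at its start, as over all genes. The promoter table gives the strand of 48 members. Of the 30 with an ETS1 end peak, the nearest lay at the start in 29 and at the finish in 1 (Rab21), and of the 27 with an ETS2 end peak, at the start in 26 and at the finish in 1 (Rab20). Over all genes in the table the nearest end peak lay at the start in 85.4% (ETS1) and 88.8% (ETS2). Of all end peaks of these members, 9 of 50 ETS1 peaks and 6 of 40 ETS2 peaks lay at the finish, among them ETS1 peaks at Rab3a, Rab5c and Rab7 and ETS2 peaks at Rab33b and Rab35. Within 1 kb of an annotated start, 30 of 48 members (62.5%, 48.4 to 74.8) had an ETS1 and 26 (54.2%, 40.3 to 67.4) an ETS2 peak, beside 38.5% and 40.4% of all genes in the table. Here any annotated start of the table was used, and not only the outermost. The nearest ETS1 centre lay downstream of such a start at 21 of the 30 and upstream at 9, with a median of 149 bp downstream. For ETS2 the numbers were 20 and 6, with a median of 169 bp. Over all genes the medians were 127 and 123 bp downstream, so the same displacement was seen outside the family. At Rab21 the table's start lies inside the gene as annotated, and an ETS1 peak 164 bp upstream of it was not counted at an end.

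**Figure D2:**
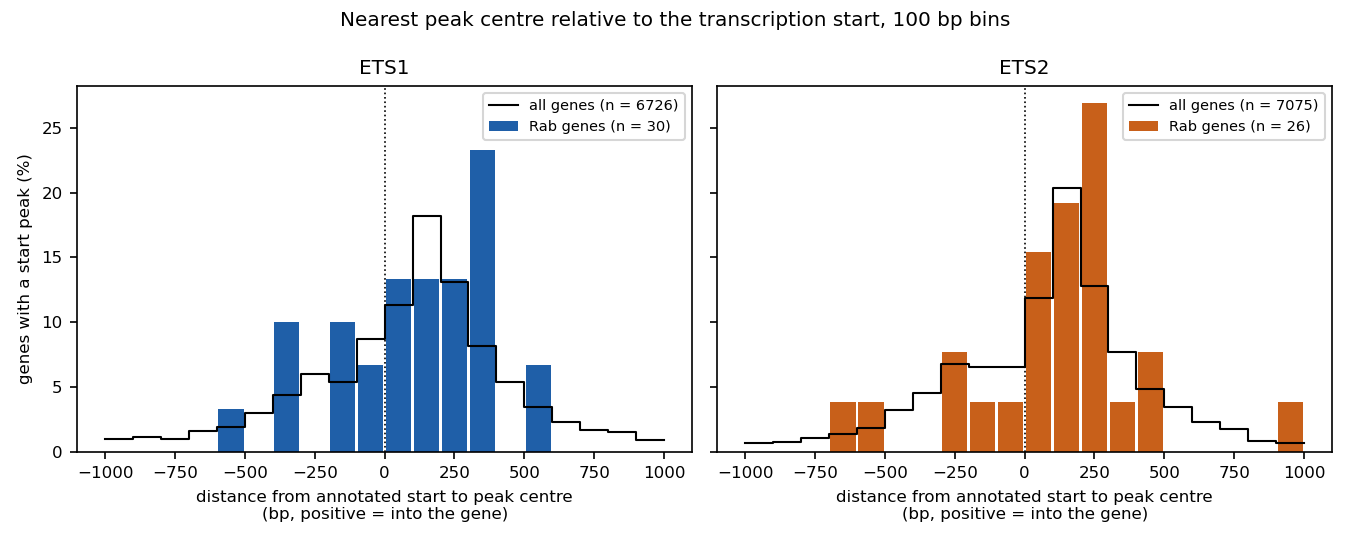
Distance in bp from the annotated transcription start to the nearest peak centre, in bins of 100 bp and as percent of genes with a peak within 1 kb of a start (bars: Rab genes, 30 for ETS1 and 26 for ETS2; black line: all genes). Centres of 21 ETS1 and 20 ETS2 peaks at Rab genes lie to the right of the start, downstream of it, as most do over all genes.

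The promoter sequences were searched for the bases that ETS factors are known to read. The core GGAA occurs, on either strand, in 95.8% of all promoters of this length and in 46 of 48 Rab promoters, the same share. The longer CGGAAG was found in 16 of 48 Rab promoters (33.3%), beside 21.4% of all promoters and 35.1% of the CpG-rich ones. Broad genes held it in 12 of 26 promoters, restricted genes in 3 of 12 and unclassed genes in 1 of 10. The form CCGGAAGT, which contains it, was found in 2 (Rab11a and Rab24), beside 5.27% of all promoters. Of the 16 Rab genes with CGGAAG, 9 had an ETS1 and 8 an ETS2 end peak, against 21 and 19 of the 32 without it. Over all genes the shares were 60.5% with and 33.2% without it for ETS1, and 63.1% and 34.1% for ETS2. Within CpG-rich promoters they were 68.4% and 56.6% for ETS1, against 9 of 13 and 17 of 21 in the Rab genes. The matches are counts of letters and their relation to the peaks was not tested.

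An ETS1 peak overlapped the promoter window itself at 10 of 48 members, beside 14.3% of all promoters in the table, and an ETS2 peak at 9, beside 16.1%. Peaks of both overlapped it at 5 (Rab13, Rab24, Rab31, Rab33b and Rab43), beside 6.55%. The following promoters show this range, each written 5′ to 3′ on its gene's strand with CGGAAG, or CTTCCG for a match on the other strand, in capitals. Rab33b is shown as the broad gene whose peaks stand earliest in both lists, Rab24 as the only member with a match inside peaks of both antibodies, and Rab31 and Rab7 for a match inside an ETS2 peak. Rab11a has most matches and no peak on them, and Rab8a has a match and no end peak.
Rab33b, chr3:51483716-51484015, plus strand: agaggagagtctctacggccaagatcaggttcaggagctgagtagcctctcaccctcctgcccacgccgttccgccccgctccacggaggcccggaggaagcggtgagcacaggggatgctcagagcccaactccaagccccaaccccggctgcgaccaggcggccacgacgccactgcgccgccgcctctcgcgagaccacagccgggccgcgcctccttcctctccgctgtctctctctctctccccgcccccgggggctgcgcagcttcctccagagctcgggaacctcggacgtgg
Rab24, chr13:55321931-55322230, minus strand: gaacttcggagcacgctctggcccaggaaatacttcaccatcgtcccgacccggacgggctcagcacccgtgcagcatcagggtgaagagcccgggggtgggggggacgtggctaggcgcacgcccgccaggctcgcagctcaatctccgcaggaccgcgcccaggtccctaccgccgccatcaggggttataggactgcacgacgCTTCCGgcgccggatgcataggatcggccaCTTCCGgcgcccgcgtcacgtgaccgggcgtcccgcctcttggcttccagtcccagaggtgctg
Rab31, chr17:65772703-65773002, minus strand: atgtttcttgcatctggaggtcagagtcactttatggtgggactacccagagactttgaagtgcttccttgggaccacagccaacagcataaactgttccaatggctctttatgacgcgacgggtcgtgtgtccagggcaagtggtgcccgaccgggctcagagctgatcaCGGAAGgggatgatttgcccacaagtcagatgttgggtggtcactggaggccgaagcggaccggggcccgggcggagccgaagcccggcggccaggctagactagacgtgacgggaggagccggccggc
Rab7, chr6:88045221-88045520, minus strand: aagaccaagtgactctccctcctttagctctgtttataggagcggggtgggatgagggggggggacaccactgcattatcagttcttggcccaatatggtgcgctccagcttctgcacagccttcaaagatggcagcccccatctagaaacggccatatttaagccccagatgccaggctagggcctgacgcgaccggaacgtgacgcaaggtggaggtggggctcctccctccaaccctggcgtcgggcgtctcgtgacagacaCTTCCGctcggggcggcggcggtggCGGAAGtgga
Rab11a, chr9:64737707-64738006, minus strand: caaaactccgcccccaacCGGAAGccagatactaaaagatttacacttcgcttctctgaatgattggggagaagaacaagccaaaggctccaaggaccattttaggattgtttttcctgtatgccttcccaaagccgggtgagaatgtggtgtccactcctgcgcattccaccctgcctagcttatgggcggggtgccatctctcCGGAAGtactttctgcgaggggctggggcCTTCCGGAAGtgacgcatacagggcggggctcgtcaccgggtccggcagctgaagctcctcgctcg
Rab8a, chr8:72160950-72161249, plus strand: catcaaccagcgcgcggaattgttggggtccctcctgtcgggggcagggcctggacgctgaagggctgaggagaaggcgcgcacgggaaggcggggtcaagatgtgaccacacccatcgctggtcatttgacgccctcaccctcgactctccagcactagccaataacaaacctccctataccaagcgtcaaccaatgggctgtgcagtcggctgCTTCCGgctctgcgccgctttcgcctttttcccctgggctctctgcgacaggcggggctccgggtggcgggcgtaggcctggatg

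Counted from the annotated start, the matches of Rab24 begin 44 and 14 bases upstream, and the one nearer the start lies inside both peaks. In Rab31 the match begins 79 bases upstream and lies in the ETS2 peak, which fell wholly inside the window, whereas the ETS1 peak overlapped it by 20 bases. In Rab7 the match nearest the end of the window lies inside the ETS2 peak. Rab11a holds 4 matches, of which 2 overlap each other, and both its peaks lie downstream of the window. Rab33b has none, although its ETS1 peak lies entirely inside the window. A match is a run of letters and not evidence of binding, and its absence from this window says nothing of the factor.

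Rabs of the endoplasmic reticulum and Golgi were marked in 7 of 9 cases by ETS1 and 6 of 9 by ETS2. Over all protein-coding genes the shares were 39.4% and 40.0%. The groups by role are small and their intervals wide, here 45.3 to 93.7 and 35.4 to 87.9, and no role was tested. Rab33b, a Golgi Rab also tied to autophagy (chr3:51483966-51496228), carried an ETS1 peak 46 bp from its start at chr3:51483832-51484008 and an ETS2 peak 62 bp from it at chr3:51483935-51484121. These stood at 2.62% and 1.03% of the deposited order, where low values mean early in the file. Rab43 had overlapping peaks 330 and 238 bp upstream of its start. Rab1a, which directs traffic from the endoplasmic reticulum to the Golgi, had an ETS1 peak 534 bp upstream and an ETS2 peak 442 bp downstream of the start, and these did not overlap. Its paralog Rab1b on chromosome 19 had neither, with the nearest centres 4651 and 4911 bp from an end.

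The paired genes of this group differed from each other. Rab2a had overlapping peaks 682 and 646 bp inside its lower end, while Rab2b had an ETS1 peak 382 bp upstream of its start and its nearest ETS2 peak 17011 bp away. The Rab2b peak also lay within 1 kb of an end of Tox4. Rab6a, a broad Golgi Rab, had an ETS2 peak centred 378 bp inside its start (chr7:100607860-100608046, at 2.76% of the order), while the nearest ETS1 centre lay 16467 bp from an end. That ETS2 peak also lay within 1 kb of an end of Mrpl48. Its neuronal paralog Rab6b had an ETS1 peak 548 bp inside its start (chr9:103112127-103112303) and an ETS2 peak 251 bp upstream of it (chr9:103111323-103111509), without overlap. Rab18, linked to lipid droplets, had an ETS1 peak centred 203 bp inside its lower end and no ETS2 peak over its locus.

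Rabs of early and recycling endosomes were marked in 11 of 13 cases by ETS1 and 8 of 13 by ETS2, all 8 of these in both lists. Over all protein-coding genes the shares were 39.4% (ETS1), 40.0% (ETS2) and 28.7% (both). The intervals of this group were 57.8 to 95.7, 35.5 to 82.3 and 35.5 to 82.3. The genes of Rab5, which organises early endosomes, were marked in all 3 cases. Rab5b carried an ETS1 peak centred 104 bp inside its start (chr10:128696092-128696268), overlapping an ETS2 peak 241 bp inside it (chr10:128695950-128696136), at 4.77% and 8.59% of the order. Both also lay within 1 kb of an end of Pmel, a pigment cell gene. Rab5a had overlapping peaks 323 and 201 bp inside its start. Rab5c had an ETS1 peak 96 bp upstream of its start (chr11:100738223-100738399), while its nearest ETS2 centre, 1020 bp beyond the finish, lay just outside the window.

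Among recycling Rabs, Rab14 (chr2:35200790-35200966 and chr2:35200749-35200935) and Rab22a (chr2:173659914-173660090 and chr2:173659835-173660021) had overlapping peaks inside the gene. Those of Rab14 lay 242 and 278 bp from the end and those of Rab22a 166 and 92 bp. Rab11a, the main Rab of the slow recycling endosome, had an ETS1 peak 393 bp and an ETS2 peak 206 bp inside its start, both also within 1 kb of a tRNA gene. Rab11b had an ETS1 peak 338 bp from the start and its nearest ETS2 peak 4217 bp from it. Rab4a, of the fast recycling route, had an ETS1 peak 115 bp beyond its upper end (chr8:123835318-123835494) and no ETS2 peak over its locus, and Rab4b on chromosome 7 had neither, with the nearest centres 2926 and 2056 bp from an end.

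Rab31, Rab35 and Rab21 carried end peaks of both antibodies that did not overlap. Rab31 had an ETS1 peak 118 bp and an ETS2 peak 86 bp from its start on opposite sides. Rab35 had an ETS1 peak 241 bp and an ETS2 peak 427 bp upstream of its lower end, and a further ETS2 peak 792 bp beyond its upper end. At Rab21 the nearest ETS1 peak lay 144 bp beyond the finish, and the nearest ETS2 peak 608 bp upstream of the annotated upper end. Rab25, an epithelial relative of Rab11, had neither peak at an end, with the nearest centres 2833 and 4510 bp away.

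Of 6 Rabs of late endosomes and lysosomes, 3 had an ETS1 and 4 an ETS2 end peak, beside 39.4% and 40.0% of all genes. Rab7, which drives fusion with lysosomes, had overlapping peaks 436 and 558 bp inside its upper end and a nearer ETS2 peak at 113 bp (1.37% of the order). Rab24, tied to autophagy, carried peaks with centres 1 bp apart, at chr13:55321832-55322008 and chr13:55321828-55322014, and both also lay within 1 kb of an end of Prelid1. The ETS1 peak stood at 5.29% of its list and the ETS2 peak at 99.8%, close to the end of the file. Rab7b had overlapping peaks 477 and 348 bp inside its upper end. Rab29, the Rab linked to the kinase LRRK2, had an ETS2 peak 236 bp inside its start (chr1:131867353-131867539), and its nearest ETS1 centre lay 38608 bp away. Rab9 and Rab9b, of the route from late endosomes to the Golgi, had neither peak, and both lie on the X chromosome.

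Among 9 Rabs of the cell surface, junctions and cilium, 6 had an ETS1 and 5 an ETS2 end peak, the 5 being in both lists. Over all protein-coding genes the shares were 39.4% (ETS1), 40.0% (ETS2) and 28.7% (both). Rab13, a Rab of tight junctions, had peaks centred 11 bp apart upstream of its start (chr3:90213404-90213580 and chr3:90213410-90213596), which also lay within 1 kb of an end of the ribosomal protein gene Rps27. Rab10, an exocytic Rab, had overlapping peaks 213 and 231 bp inside its start (chr12:3309668-3309844 and chr12:3309645-3309831). The ciliary Rab23 had them 210 and 179 bp inside the start (chr1:33720018-33720194 and chr1:33719982-33720168), the ETS2 peak at 1.86% of the order. Rab34 had peaks 401 and 97 bp inside its start, and the pair that overlapped lay 940 and 916 bp inside the gene. Rab28 had an ETS1 peak 224 bp and an ETS2 peak 971 bp inside the start, the latter near the edge of the window. Rab12 had an ETS1 peak 35 bp upstream of its start (chr17:66519697-66519873) and its nearest ETS2 peak 8515 bp away. Rab8a and Rab8b, which carry cargo to the surface and the cilium, had neither: the nearest ETS1 peaks lay 2876 and 5866 bp and the nearest ETS2 peaks 25783 and 8538 bp from an end. Rab17, an epithelial Rab, also had neither.

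Rabs of regulated secretion were marked in 5 of 9 cases by ETS1 (55.6%, 26.7 to 81.1) and 4 of 9 by ETS2 (44.4%, 18.9 to 73.3). Over all protein-coding genes the shares were 39.4% and 40.0%, inside both intervals. The Rab3 genes, which prime secretory vesicles, divided. Rab3d, the Rab3 of Weibel-Palade bodies, carried an ETS1 peak 339 bp (chr9:21917772-21917948) and an ETS2 peak 185 bp (chr9:21917921-21918107) inside its upper end, overlapping by 28 bp. Rab3a, the synaptic vesicle Rab, had 4 ETS1 peaks within 1 kb of its ends, the most of any member, and 2 ETS2 peaks, in a gene of 3.91 kb. The overlapping pair lay upstream of its start at chr8:70754197-70754373 and chr8:70754177-70754363. Rab3b had an ETS1 peak alone 580 bp inside its start (chr4:108879562-108879738), at 91.0% of the order, and Rab3c, 227 kb long, had neither at an end. Rab27a, which docks Weibel-Palade bodies and other granules, had neither, with nearest centres 5353 and 4973 bp upstream of its start. Rab27b had an ETS2 peak centred 493 bp inside its upper end, at 99.3% of the order. Rab37, a mast cell Rab, had overlapping peaks 750 and 810 bp beyond its upper end (chr11:115163435-115163611 and chr11:115163490-115163676), both also within 1 kb of an end of Slc9a3r1. Rab26 had an ETS1 peak 750 bp inside its lower end (chr17:24529716-24529892), while the nearest ETS2 centre lay 1536 bp away, and Rab44 had neither. Of the genes named above for Weibel-Palade bodies, Rab3d carried both peaks and Rab27a and Rab15 neither. These genes are examples and not a full list of Rabs of that granule, and their split was not tested.

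The Rabs of melanosomes and other lysosome-related organelles divided as well. Rab32 carried overlapping peaks 323 and 285 bp inside its start (chr10:10557796-10557972 and chr10:10557829-10558015), at 8.45% and 11.0% of the order. Rab38, its closest relative, had no peak over its locus, and the nearest centres lay 694983 and 448725 bp from an end on chromosome 7. On that chromosome the lists held 7.91 (ETS1) and 18.1 (ETS2) peaks in each Mb. None of the 4 Rab genes there had an ETS1 end peak and 1, Rab6a, had an ETS2 end peak. Of all genes on chromosome 7 the shares were 18.4% and 30.5%.

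The remaining 11 members were placed in no role list. Rab40c had overlapping peaks 935 and 957 bp beyond its upper end, with nearer peaks 505 and 278 bp from it. Rab36 had overlapping peaks 405 and 525 bp inside its lower end, and an ETS2 peak 24 bp from that end, the closest of any member. Rab20 had an ETS1 peak 329 bp from its start and an ETS2 peak 939 bp beyond its finish. Rab40b had an ETS1 peak at 353 bp alone and Rab19 an ETS2 peak at 786 bp alone (chr6:39381402-39381588). Rab15, Rab30, Rab33a, Rab39, Rab39b and Rab42 had neither.

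**Figure D3:**
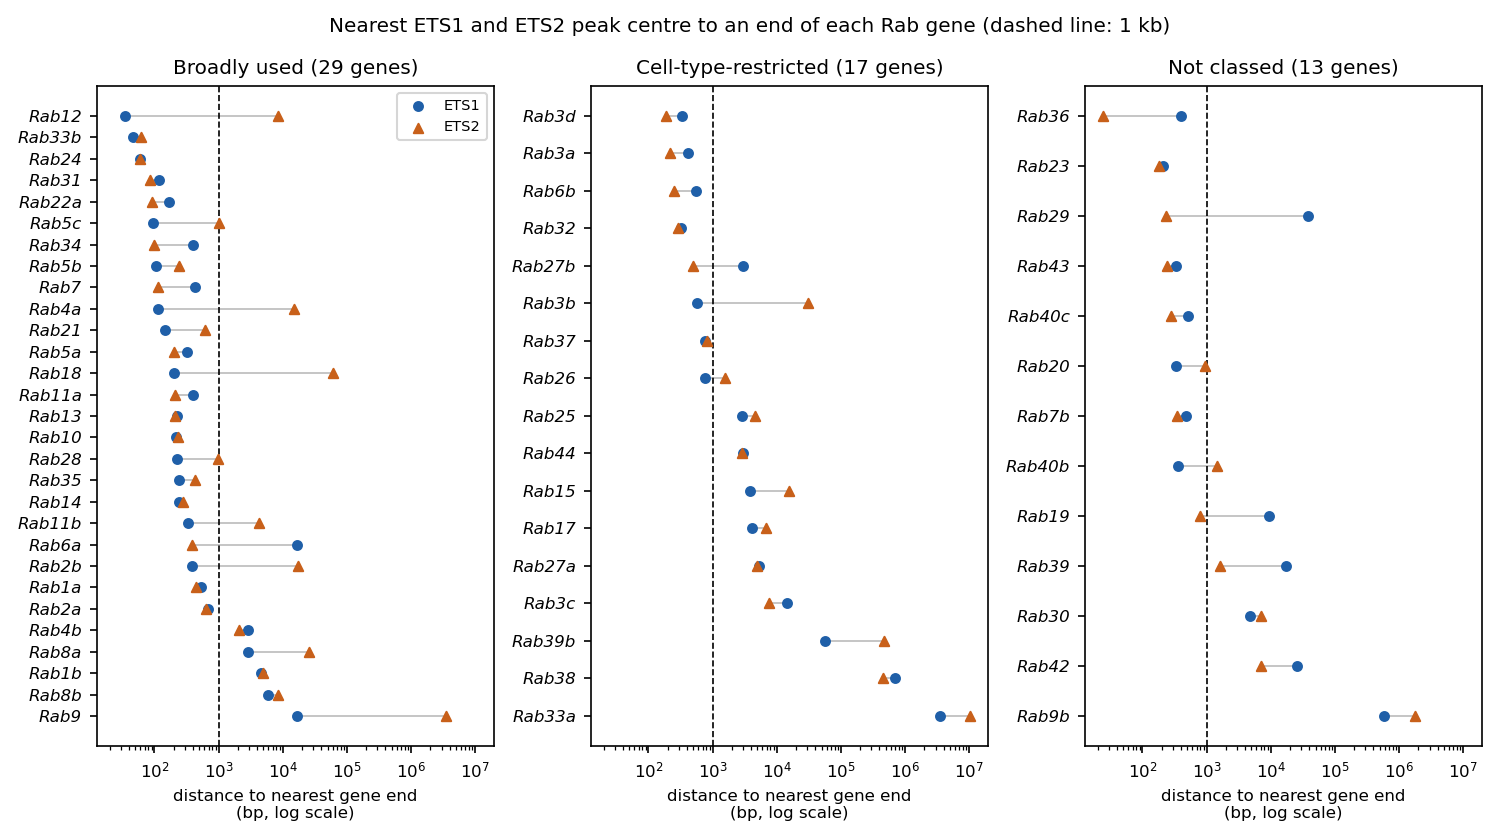
Distance in bp, on a log axis, from the nearest ETS1 peak centre (blue circles) and ETS2 peak centre (orange triangles) to an end of each Rab gene, in 3 panels by class, with genes ordered by the nearer of the pair and a dashed line at 1 kb. Most broad genes have at least one symbol left of the line, and for ETS1 no gene lies between 750 and 2833 bp.

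By the nearest peak of each gene, marked and unmarked members stood well apart for ETS1 and less so for ETS2. Among marked members the nearest ETS1 centre lay at most 750 bp from an end (Rab26 and Rab37), and among unmarked members at least 2833 bp (Rab25). For ETS2 these were 971 bp (Rab28) and 1020 bp (Rab5c). The median distance over all 59 members was 477 bp for ETS1 and 810 bp for ETS2, beside 3110 and 3248 bp over all genes. Of the 37 members with an ETS1 end peak, 18 had more than 1 such peak, and of the 32 with an ETS2 end peak, 13 did. The nearest peak also lay within 1 kb of another gene's end at 12 and 9 members, a protein-coding gene at 5 in each list, and cannot be assigned to the Rab gene alone. Shares over all genes are not given here for several end peaks or for a second gene nearby. These counts are therefore not read as traits of the Rab genes. In the deposited order the nearest end peaks of Rab genes had medians of 24.5% (ETS1) and 25.0% (ETS2), beside 29.6% and 30.4% for end peaks of all genes. In the first 10% of the order stood 16.2% of the Rab end peaks of ETS1 and 21.9% of those of ETS2, beside 23.5% and 20.9%, so the order did not set Rab peaks apart in one direction.

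Peak numbers of the chromosomes are given beside the members in a single list. Of all 59 members, 42 lie on a chromosome with more ETS1 than ETS2 peaks and 17 on one with more ETS2 peaks. The numbers for all 21887 protein-coding genes were 14172 and 7715. Of the 9 in the ETS1 list alone, 8 lie on a chromosome with more ETS1 than ETS2 peaks, the exception being Rab3b on chromosome 4. Of the 4 in the ETS2 list alone, 2 (Rab6a on chromosome 7 and Rab19 on chromosome 6) lie where ETS2 peaks were more numerous and 2 (Rab29 and Rab27b) do not. On chromosome 1, which holds Rab29, 41.1% of genes had an ETS2 and 27.0% an ETS1 end peak. None of the 4 members on the X chromosome had a peak of either list over its locus. Without X, 37 of 55 members (67.3%) had an ETS1 end peak, beside 41.1% of all genes off X.

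Genes with the same Rab number encode close relatives and form 14 sets with 31 members. The members shared one status in 4 sets: Rab7 and Rab7b with both peaks, and the Rab8, Rab9 and Rab39 genes with neither. Every member was marked by at least one list in 6 sets, some members in 5, and none in 3. At least one list marked 41 of all 59 members and 50.7% of all protein-coding genes. Rab9, Rab9b and Rab39b lie on the X chromosome, and the sharing of status within sets was not tested. Paralogs are named by protein sequence, and likeness of their promoters was not measured here.

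Peaks over whole loci, counted over the gene and 10 kb on each side, did not simply follow length. Rab7 (46.2 kb) held 13 ETS1 and 29 ETS2 peaks and lies on chromosome 6, where ETS2 peaks reached 104 per Mb and ETS1 peaks 34.6. Rab31, which sorts cargo from the Golgi to endosomes (121 kb), held 27 and 9. Rab43 held 9 and 10, and Rab22a 12 and 4. Rab27b (163 kb) held 13 and 3, and Rab3c (227 kb), the longest, held 2 and 1. Rab25, at 6.25 kb, held 11 and 6 although none lay at an end. Together the member loci held 8.62 ETS1 and 5.98 ETS2 peaks per 100 kb, beside 5.10 and 4.16 for all genes. Broad loci had 10.8 and 7.49, and restricted loci 6.66 and 3.12.

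**Figure D4:**
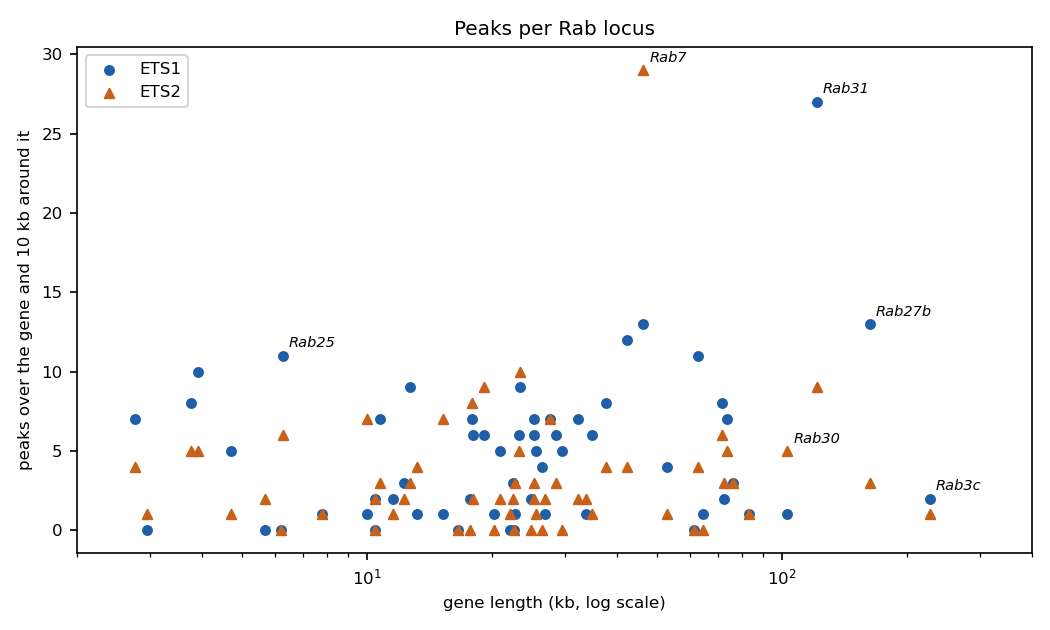
Number of ETS1 (blue circles) and ETS2 (orange triangles) peaks over each Rab gene and 10 kb around it, against gene length in kb on a log axis. Rab7 with 29 ETS2 and Rab31 with 27 ETS1 peaks stand above the rest, while the longest gene, Rab3c, has 2 and 1.

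The proteins that act on Rabs gave their own counts. Over all protein-coding genes, the background for each list here, the shares were 39.4% (ETS1), 40.0% (ETS2) and 28.7% (both). Over 86 genes in 4 lists, 43 (50%) had an ETS1 and 54 (62.8%) an ETS2 end peak, and 36 (41.9%) had both. The order of the lists was thus the opposite of that at the Rab genes, a difference that was not tested. Counts to be had from the chromosome shares are not given for these 86 genes. Those shares differed between the lists, as on chromosome 7 (18.4% for ETS1 and 30.5% for ETS2) and chromosome 8 (58.9% and 47.7%). Of 24 Rab GAP genes 14 (58.3%) had an ETS1 and 18 (75.0%) an ETS2 end peak, and 13, among them Tbc1d4 and Usp6nl, had both. Of 22 GEF genes 7 (31.8%, 16.4 to 52.7) and 11 (50%, 30.7 to 69.3) were marked, and 4 (18.2%, 7.31 to 38.5) had both. The shares over all genes lie inside these intervals. Of the subunits that activate Rab7, Ccz1 and Mon1b carried both peaks and Mon1a neither, with its nearest centres 1563 and 4792 bp from an end. Of 32 effector genes 18 (56.2%) and 21 (65.6%) were marked. Among effectors of Rab5, Eea1, Rabep1, Rbsn, Appl1 and Appl2 carried both peaks and Rabep2 an ETS2 peak alone. Mlph, Sytl1, Sytl2, Sytl4 and Sytl5, all effectors of Rab27, carried neither. Of these, Sytl4 and Sytl5 lie on the X chromosome, where 2.38% (ETS1) and 0.621% (ETS2) of all genes had an end peak. Unc13d, another Rab27 effector, carried both. These effectors were picked from the list after their values were seen. Of 8 genes for GDP dissociation inhibitors, prenylation and related factors, 4 were marked in each list. Gdi2 and Rabif had both peaks, while Chm, on the X chromosome, had neither.

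A related family of small GTPases was set beside the Rabs. Of 30 genes of the wider Arf family, the Arf and Arl genes with Arfrp1, Sar1a, Sar1b and Trim23, 25 (83.3%) had an ETS1 and 22 (73.3%) an ETS2 end peak. The Rab shares were 62.7% and 54.2%, and those over all protein-coding genes 39.4% and 40.0%. The intervals of the 2 families overlap in both lists, and the difference between the families was not tested.

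**Figure D5:**
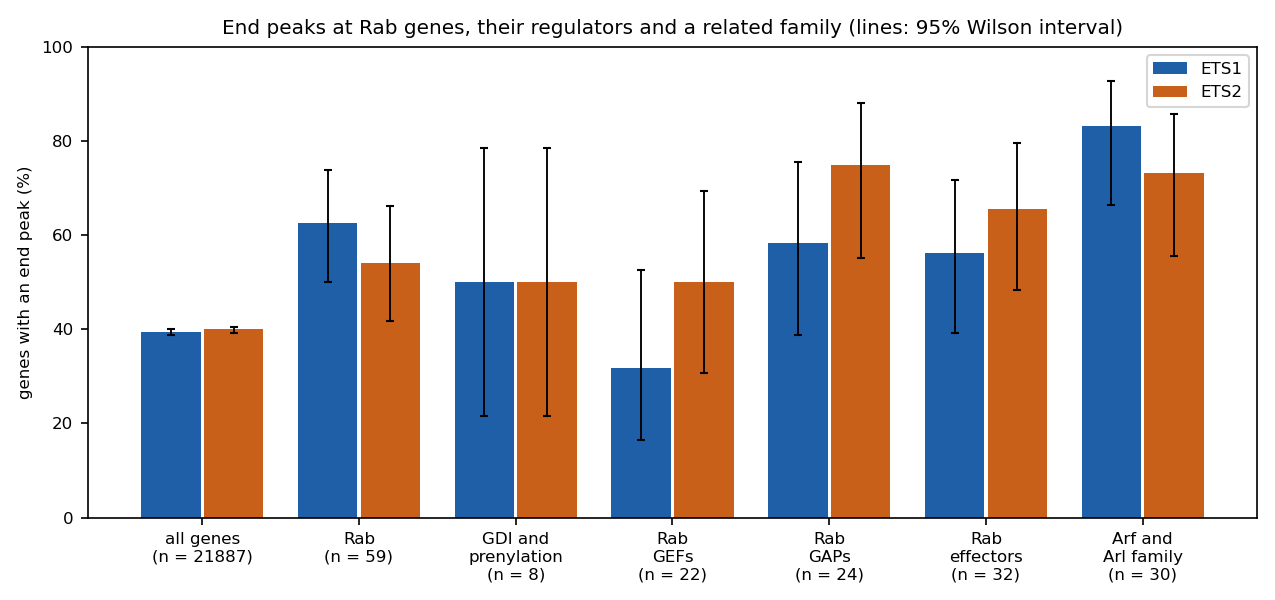
Share of genes with an ETS1 (blue) or ETS2 (orange) end peak, in percent, for all genes, the 59 Rab genes, the lists of Rab regulators and effectors, and the wider Arf family (lines are 95% Wilson intervals). The Arf family list stands at 83.3% and 73.3%, and the GEF list at 31.8% and 50%.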

How the data were processed

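ChIP-seq libraries of 1 ETS1 and 1 ETS2 immunoprecipitation were grouped by the antibody in the title. CASAVA 1.8, Bowtie2 and HOMER, and the builds mm9 and mm10, are named in the submitters' processing notes. Per the file headers, HOMER findPeaks called peaks from tag directories named for mm10, with its fold and local filters set to 0, a false discovery rate of 0.01, a threshold of 30 tags and no control directory. Peaks are 177 bp (ETS1) and 187 bp (ETS2) wide. The score deposited by the authors is 1 in every row and was not used; what set the deposited order is not given in the sources used here.

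Peak centres were set against both annotated ends of each gene, whose positions came from RefSeq (GRCm38.p6), and against the start sites of the promoter table, with Python 3.11.15, pandas 2.3.3 and SciPy 1.17.1. The counting was checked on simulated peaks. Exons and introns were not distinguished here. Peaks per Mb used the span from the first to the last annotated gene. Intervals are 95% Wilson intervals. Motifs were searched on both strands.

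Members and lists were chosen with earlier results of these data known. Every member may be named. Peak positions were due for 8 members with overlapping peaks nearest an end and for restricted members with a peak, and distances for broad members without one, members of a single list, those near 1 kb and paralogs. Alternatives changed the window, the distance measure, the peaks used, the chromosomes, the gene end and the overlap. One comparison family and 1 regulator gene are not reported here.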

Additional observations from a re-analysis of the deposited data

How the results depend on the processing

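Counts were recomputed for 8 results in 48 combinations with an alternative, and 45 stayed within 1.5 times the reported count. The exceptions were the restricted Rab genes with an ETS1 peak, 3 in place of 7 within 500 bp, and the Rab genes with overlapping peaks, 12 in place of 20 in the first 50% of the deposited order and 13 where the overlap had to cover 50% of the ETS1 peak. Fewer peaks qualify under each of these by construction. The Rab genes with an ETS1 peak ranged from 28 (first 50% of the order) to 37 of 59 (within 1 kb or 2.5 kb). The shares of all genes were 29.1% in that subset, 39.4% within 1 kb and 48% within 2.5 kb. Those with an ETS2 peak ranged from 25 (first 50% of the order) to 37 (within 2.5 kb), beside 29% and 47.7% of all genes. The overlap count was not run for start sites alone or for the nearest base. No paired analysis was possible because each antibody has 1 library. Depth limits these counts through the threshold of 30 tags, so a gene without a peak may hold a smaller pile-up.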

Other observations

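Some Rab promoters carried other common promoter elements. The letters GGGCGG, a match to the element read by SP1, were found in 34 of 48 Rab promoters (70.8%), beside 46.3% of all promoters and 76.8% of the CpG-rich ones. CCAAT was found in 23 (47.9%), beside 39.1%, and in 16 of 26 broad against 2 of 12 restricted genes. TATAAA was found in 4 (Rab3b, Rab7, Rab39b and Rab42), beside 13.3% of all promoters. These are matches of letters on either strand, and none of the shares was tested.

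Rab3a, Rab25, Rab34 and Rab24 are short genes with many peaks. Per 100 kb of gene and flanks, Rab25 held 41.9, Rab3a 41.8, Rab34 33.7 and Rab24 30.8 ETS1 peaks, beside 8.62 over all member loci. The Rab34 locus held 8 ETS1 and 5 ETS2 peaks in a gene of 3.77 kb. The Rab24 locus held 7 ETS1 and 4 ETS2 peaks in a gene of 2.76 kb, with 3 of the ETS1 peaks within 1 kb of an end. Other annotated genes reach into the flanks of all 4, so the peaks cannot be assigned to the Rab genes alone.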
